A study of Homo sapiens with 8 samples.

Results

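Of the 35901 H3K27me3 islands listed for the first DMSO library of PC9 cells after spike-in normalization, 13944 were intergenic islands found in both DMSO replicates. An island is a run of 200-bp windows holding more sequence tags than a random background, as called by the authors with SICER. The members were taken as islands under 40 kb of DMSO replicate 1 (35298 islands) that overlapped an island of DMSO replicate 2 (31876 islands) and lay more than 10 kb from the body of any protein-coding gene of the GENCODE annotation on GRCh37. The members were thus selected on measured values, the island calls and lengths of the DMSO lists, so their presence with DMSO is described and not tested. The other islands under 40 kb in both DMSO lists are used for comparison, and comprised 11750 in gene bodies, 3549 at promoters (within 2 kb of a start) and 2633 in the 10 kb flanks of genes. Intergenic here means away from protein-coding genes only, since 4516 of the 13944 islands (32.4%, against 24.2% of all 31876 islands) overlapped the gene of a long non-coding RNA (lncRNA) and 1050 (7.53%, against 5.64%) overlapped a pseudogene.

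The study asked whether chromatin of Drosophila melanogaster, added to each reaction with an antibody to the fly histone variant H2Av, lets ChIP-seq measure a change in the amount of a histone mark across the human genome. PC9, a human lung adenocarcinoma cell line, was treated for 5 days with 1 μM GSK126, an inhibitor of the methyltransferase EZH2, or with the vehicle DMSO. H3K27me3 and H3K4me3 were each profiled in 2 DMSO and 2 GSK126 libraries, 8 libraries in all. The labels do not say whether replicates came from separate cultures, and the paper describes its PC9 replicates as biological. The H3K27me3 libraries each have a spike-in list, for which the number of human tags was set from the fly tags, and a standard list, for which the DMSO and GSK126 libraries of a replicate were brought to equal human tags.

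H3K27me3 is written by the Polycomb complex PRC2, in which EZH2 or its relative EZH1 is the catalytic subunit. It is known for silencing developmental regulators, and also spreads as domains over stretches without genes. In mammals PRC2 is drawn to unmethylated CpG-rich DNA, while H3K4me3 marks the starts of active or poised transcription units.

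The following windows show DNA under some high-scoring intergenic islands. Each is the 200-bp window of an island that holds most CpG dinucleotides, read on the plus strand of GRCh37, with CpG in capitals. The first 3 come from the highest-scoring islands and the last pair from the highest-scoring islands with H3K4me3 in both DMSO lists whose window is not already shown.
chr6:58776601-58776800: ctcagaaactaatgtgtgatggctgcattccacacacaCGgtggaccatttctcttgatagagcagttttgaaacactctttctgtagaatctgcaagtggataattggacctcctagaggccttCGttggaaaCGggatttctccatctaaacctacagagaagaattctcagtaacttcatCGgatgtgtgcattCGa
chr7:155167001-155167200: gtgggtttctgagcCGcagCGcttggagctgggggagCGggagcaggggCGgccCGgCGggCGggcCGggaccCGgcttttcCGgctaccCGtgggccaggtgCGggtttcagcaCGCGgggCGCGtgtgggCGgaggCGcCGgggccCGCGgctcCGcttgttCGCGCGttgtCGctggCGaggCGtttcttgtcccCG
chr5:1667601-1667800: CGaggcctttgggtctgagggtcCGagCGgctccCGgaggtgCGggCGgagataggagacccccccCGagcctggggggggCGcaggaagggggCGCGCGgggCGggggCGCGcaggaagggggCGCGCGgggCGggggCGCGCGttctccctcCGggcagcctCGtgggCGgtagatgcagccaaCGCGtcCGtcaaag
chr7:157263001-157263200: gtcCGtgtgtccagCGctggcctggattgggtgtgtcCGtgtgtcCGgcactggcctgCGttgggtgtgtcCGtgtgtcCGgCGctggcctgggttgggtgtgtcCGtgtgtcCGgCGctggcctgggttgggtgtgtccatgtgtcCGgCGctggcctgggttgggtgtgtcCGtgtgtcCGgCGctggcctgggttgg
chrY:13488201-13488400: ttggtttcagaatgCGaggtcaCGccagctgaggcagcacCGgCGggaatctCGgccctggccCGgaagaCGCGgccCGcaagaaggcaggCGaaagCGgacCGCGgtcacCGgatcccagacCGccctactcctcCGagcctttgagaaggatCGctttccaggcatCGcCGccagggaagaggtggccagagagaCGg
The window on chromosome 7 between INSIG1 and EN2 held 29 CpG and the one on chromosome 5 between LPCAT1 and MRPL36 held 27. The window on chromosome 6, next to a gap of the assembly, held 5, and those on chromosomes 7 (between DNAJB6 and PTPRN2) and Y held 16 and 20. Over all 13944 intergenic islands the CpG-richest window held a median of 7 CpG (quartiles 5 and 9). Most of the windows shown are therefore not typical.

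The tag density behind each list can be read from the scores. An island score is a sum over windows of the negative natural log of a Poisson probability, and in every list the scores of the smallest islands matched whole tag numbers, within 0.001, at 1 value of the mean tags per window. For H3K27me3 this was 1.65 and 2.33 tags per window in the DMSO spike-in lists of replicates 1 and 2, and 0.382 and 0.455 in the GSK126 spike-in lists. The GSK126 spike-in lists were thus called at 23.1% and 19.6% of the tag density of their DMSO lists. In the standard lists, DMSO and GSK126 both had 1.36 tags per window in replicate 1 and 1.55 in replicate 2. An island can therefore be missing from a GSK126 spike-in list because fewer tags were left to call it, and only the standard lists compare islands at equal tags. The 2 pairs of libraries allow no p under 0.5 in an exact sign-flip test, so differences are given per replicate with the mean ± SD (n = 2) and no p.

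Fewer than 1 in 2 intergenic islands were called again after GSK126 once the spike-in was applied. In replicate 1, 5560 of the 13944 islands (39.9%, 95% Wilson interval 39.1 to 40.7) overlapped a GSK126 spike-in island, against 43.0% of all islands under 40 kb. In replicate 2, 4962 did (35.6%, 34.8 to 36.4), against 39.8%. The intervals cover counting error only and treat neighbouring islands as independent. The replicates largely picked out one set, because 4217 islands (30.2%, against 34.0% of all islands) were in both lists, which was 75.8% of the replicate 1 set and 85.0% of the replicate 2 set. A further 7639 islands (54.8%, against 51.2%) were in neither list.

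At equal tags more of the same islands were called. The GSK126 standard lists overlapped 9955 islands in replicate 1 (71.4%, against 72.9% of all islands) and 8220 in replicate 2 (59.0%, against 62.0%). The DMSO standard lists of the same libraries overlapped 83.9% and 89.7%. In replicate 1, 4432 islands (31.8%) were in the GSK126 standard list but not in the spike-in list of the same library, and in replicate 2 this held for 3275 (23.5%). These islands left the GSK126 lists when tags were removed for the spike-in, whereas 3952 and 5707 islands were in neither list of the library. Such counts by library were taken for intergenic islands only and are not read as particular to them. Both standard lists held 7739 islands (55.5%, against 58.5%), and neither held 3508 (25.2%, against 23.6%).

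**Figure D1:**
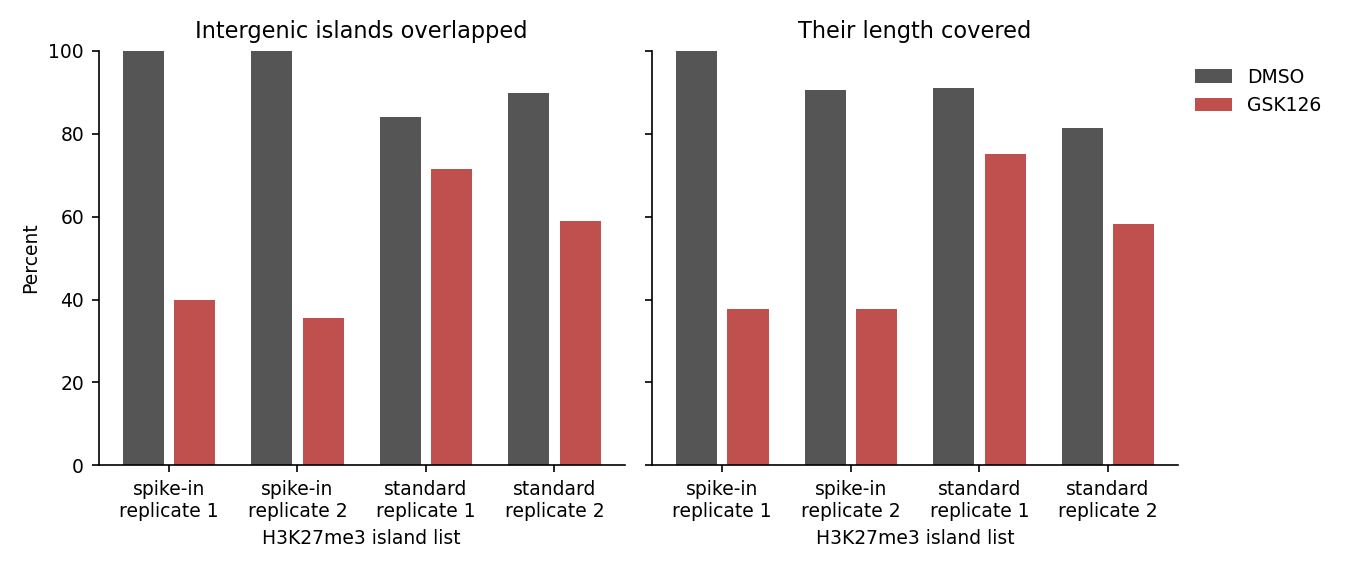
Percent of the 13944 intergenic islands overlapped by at least 1 bp (left) and percent of their total length covered (right) in each H3K27me3 list, with 1 bar per library for DMSO (grey) and GSK126 (red). The GSK126 bars stand at 39.9% and 35.6% of islands in the spike-in lists and at 71.4% and 59.0% in the standard lists, and the 2 DMSO spike-in bars at 100% are fixed by the choice of islands.

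The islands together spanned 91.7 Mb. GSK126 islands covered 34.6 Mb of this in each spike-in list, 37.7% in both replicates. The DMSO spike-in lists covered 100% by choice in replicate 1 and 90.6% in replicate 2, which gives a log2 ratio of covered length, GSK126 over DMSO, of -1.41 and -1.26 (mean -1.33 ± 0.10). In the standard lists the DMSO and GSK126 shares were 91.0% and 75% in replicate 1 and 81.3% and 58.2% in replicate 2, with log2 ratios of -0.28 and -0.48 (mean -0.38 ± 0.14). GSK126 coverage was lower in both replicates under both normalizations. Because islands were chosen for being present with DMSO, part of this direction is set by the choice.

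Intergenic islands were retained less often than gene body islands, by a margin that was smaller among islands of like score. In the spike-in lists 42.5% and 40.5% of gene body islands were overlapped, and the intergenic minus gene body difference was -2.59 points in replicate 1 and -4.91 points in replicate 2 (mean -3.75 ± 1.64). The median DMSO score was 108 for intergenic and 116 for gene body islands. Compared within 4 groups of equal DMSO score, the difference was 0.04 points in replicate 1 and -2.37 in replicate 2 (mean -1.16), and so had no common direction. Within 4 groups of equal length it was -0.15 and -2.54 points. Promoter islands, with a median score of 207, were retained at 60.2% and 57.7%, and flank islands at 38.6% and 35.0%.

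Intergenic islands were short. Their median length was 4800 bp (quartiles 3200 and 7800 bp), close to the 5000 bp of gene body islands and under the 6600 bp of promoter islands, and 553 exceeded 20 kb. They filled 6.81% of the 1348 Mb of sequence more than 10 kb from a coding gene. Next to the length limit, the longest members measured 39.8 and 39.6 kb. GSK126 spike-in islands covered 54.3% and 44.7% of the former in replicates 1 and 2, and 73.2% and 75.8% of the latter. The former lay 40.5 kb from a gap of the assembly. The shortest of the 178 islands just outside the limit measured 40 kb each. On chromosome 2, the one at 23526801 was covered to 84.5% and 87.5%, and the one at 122570801 to 89% and 95.5%. Next to the distance limit, the nearest members lay 10001 and 10009 bp from a gene and neither was in a GSK126 spike-in list. Just outside it, an island 9994 bp from a gene on chromosome 16 was covered to 57.9% in replicate 1 and not at all in replicate 2. Another at 9994 bp, on chromosome 18, was covered to 15.1% and 59.3%.

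The DMSO score of an island ordered how often it was found again. From the lowest to the highest quartile by score, 5.57% ± 0.41, 14.4% ± 1.95, 40.2% ± 6.49 and 90.7% ± 3.29 (SD, n = 2) of islands were in the GSK126 spike-in lists. Gene body islands within the same score limits gave 5.92%, 14.8%, 43.6% and 91.3%, so the order was not particular to intergenic DNA. Quartiles by length gave 14.5%, 19.9%, 36.5% and 78.9%. Distance from the nearest coding gene gave no such order, with 37.4%, 39.3%, 38.6% and 35.6% from the nearest to the farthest quartile.

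Islands with more CpG were retained more often, also within score quartiles. Intergenic islands had a median of 1.13 CpG per 100 bp, below gene body (1.27) and promoter islands (2.22), and pooled they held 1.30 per 100 bp against 0.795 in all intergenic sequence. From the CpG-poorest to the CpG-richest quartile, 21.5% ± 3.89, 34.7% ± 3.54, 44.8% ± 2.82 and 49.8% ± 1.90 were in the GSK126 spike-in lists. Gene body islands within the same CpG limits gave 23.3%, 37.9%, 46.8% and 48.6%, so the order was not particular to intergenic islands. Quartiles of intergenic islands by G+C content gave 28.7%, 37.2%, 42.6% and 42.3%. Within each quartile by score, islands above the median CpG content were retained more often in both replicates. The gap was widest in the third quartile, where 39.8% below and 49.9% above the median were retained in replicate 1, and 27.8% and 43.6% in replicate 2. Islands with more CpG were slightly shorter there, with medians of 5200 and 6200 bp above and below the median, and their median scores were 148 and 146. In the highest quartile the scores were not matched, with medians of 518 above and 410 below the median CpG content.

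**Figure D2:**
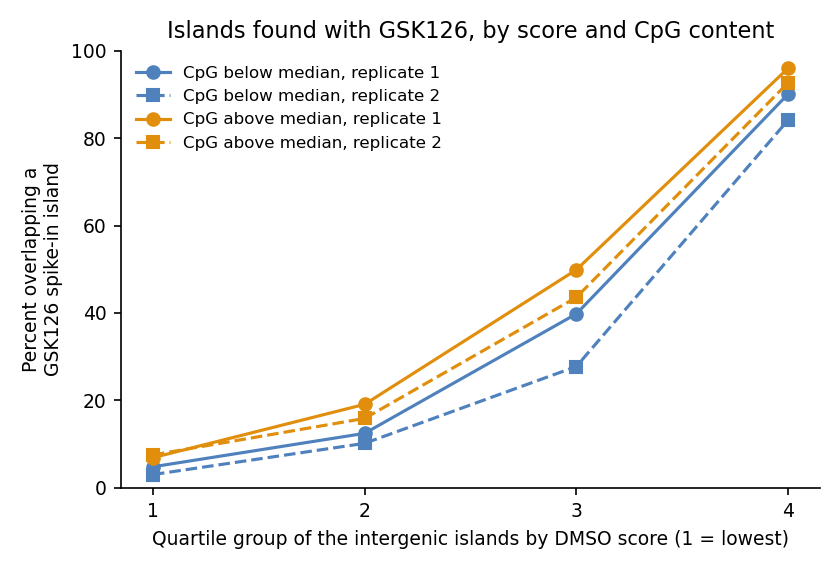
Percent of intergenic islands that overlap a GSK126 spike-in island, by quartile of DMSO score, for islands below (blue) and above (orange) the median CpG content of their quartile in replicate 1 (circles) and replicate 2 (squares). The orange line of a replicate lies above its blue line in all 4 quartiles, with 43.6% against 27.8% in the third quartile of replicate 2.

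The standard lists showed the same side in each quartile by score, with smaller gaps in the highest one. In the third quartile, 69.8% below and 80.9% above the median CpG content were in the replicate 2 list, and 89.7% and 91.7% in the replicate 1 list. Islands kept in both spike-in lists had a median of 1.31 CpG per 100 bp, a median length of 9200 bp and a median score of 366. Those in neither had 1.04 CpG per 100 bp, 3800 bp and a score of 72.6, and 23.8% of them were still in both standard lists.

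**Figure D3:**
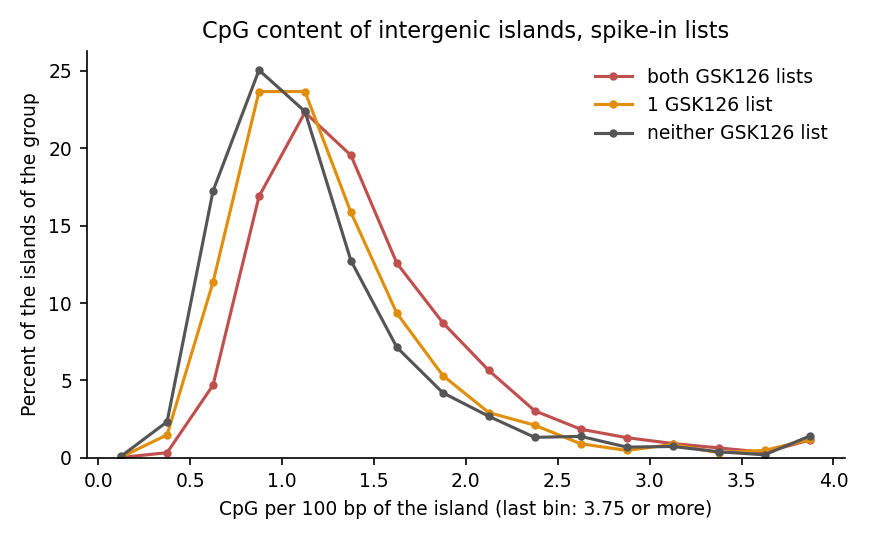
Distribution of CpG per 100 bp over intergenic islands found in both GSK126 spike-in lists (4217 islands, red), in 1 list (2088, orange) or in neither (7639, grey), as percent of each group in bins of 0.25. The curve of islands in both lists lies to the right of that of islands in neither, with medians of 1.31 and 1.04.

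Within retained islands, GSK126 islands lay on the parts with more CpG. They covered a median of 63.3% of the length of 5560 retained islands in replicate 1 and 70.4% of that of 4962 islands in replicate 2. In islands covered in part, the covered stretch had a median of 1.36 CpG per 100 bp and the rest 1.00 in replicate 1, and 1.37 and 1.00 in replicate 2. The covered stretch was the richer one in 74.3% and 72.9% of these islands. At equal tags this share was 70.9% and 72.2% in the GSK126 standard lists and 65.9% and 68.5% in the DMSO standard lists. The latter rest on other islands, with 1757 and 8423 covered in part. A preference of this kind was thus also present with DMSO. In the GSK126 spike-in lists gene body islands gave 72.0% and 72.1% and promoter islands 73.8% and 71.5%, so it was not particular to intergenic islands. In intergenic islands retained in the spike-in lists, the CpG-richest window was covered in 70.4% and 73.4%, against a mean covered share of 62.7% and 68.3% of length.

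At equal tags, the highest quartile of islands by DMSO score had a higher summed score with GSK126 and the other quartiles a lower one. Summed over all intergenic islands, the DMSO score of replicate 1 was 2.76e+06 and the GSK126 score 3.12e+06, and in replicate 2 these were 2.91e+06 and 3.86e+06, a log2 ratio of 0.17 and 0.41 (mean 0.29 ± 0.16). Gene body islands gave 0.13 and 0.40 and promoter islands 0.27 and 0.60, so the rise was not particular to intergenic islands. In intergenic islands covered length moved the other way (log2 -0.28 and -0.48, above). In the highest quartile by DMSO score the log2 ratio of summed scores was 0.34 and 0.64, in the third quartile -0.27 and -0.42, in the second -0.70 and -0.93, and in the lowest -0.23 and -1.46. Only the highest quartile was above 0, and it was so in both replicates. Yet only 52.7% of its islands called in both lists scored higher with GSK126 in each replicate (median log2 0.04 and 0.07). In the lowest quartile of replicate 2, 71.6% of islands were in the DMSO list and 20.7% in the GSK126 list. Because islands were chosen for being present with DMSO, part of the fall in the lower quartiles is set by the choice. With quartiles taken from the DMSO list of the other replicate, an alternative chosen after the data were seen, the highest quartile gave 0.34 and 0.64 and the lowest -0.71 and -1.46. This ranking keeps a library from setting both the order and the ratio in replicate 1, and in replicate 2 it is the ranking already used.

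**Figure D4:**
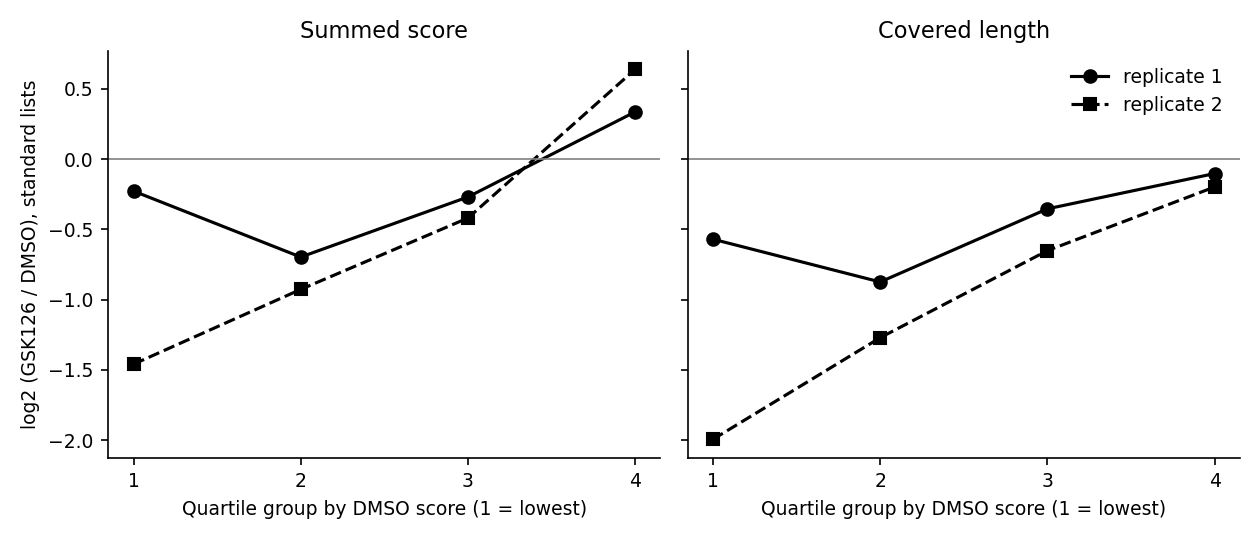
The log2 ratio of GSK126 over DMSO in the standard lists, at equal tags, for the summed score (left) and covered length (right) of intergenic islands by quartile of DMSO score in replicate 1 (circles) and replicate 2 (squares). Summed score is above 0 only in the highest quartile, at 0.34 and 0.64, while covered length is below 0 in all 4 quartiles.

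The summed score was more concentrated with GSK126. With islands ranked by the DMSO standard list of the other replicate, an order added after the data were seen, the top 1394 carried 51.0% of the DMSO score and 62.0% of the GSK126 score in replicate 1, and 53.9% and 70.9% in replicate 2. Their log2 ratio of summed scores was 0.46 and 0.80, and that of all other intergenic islands -0.19 and -0.26. Of the top 139 in this order, 92.1% and 92.8% scored higher with GSK126. Over the 9321 islands in both lists of replicate 1 the median log2 score ratio was -0.11 (quartiles -0.49 and 0.26). Over the 8002 of replicate 2 it was -0.10 (-0.71 and 0.55). Islands called in 1 list only have no ratio. In replicates 1 and 2, 2379 and 4510 intergenic islands were in the DMSO list only, and 634 and 218 in the GSK126 list only. For the 11750 gene body islands these counts were 1998 and 3520, and 500 and 187. Part of this direction is set by the choice of islands. Of 7362 islands in all 4 standard lists, 33.2% scored higher with GSK126 in both replicates and 40.3% lower in both, beside 34.9% and 39.3% of the 17818 such islands of all classes. A standard list sets human tags equal, so a higher score there does not show more H3K27me3 per cell. The score is also not a count of tags, and the share of tags in these islands was not measured.

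The 6 highest-scoring islands are described first, with their nearest coding gene on either side. The second-highest score, 8489, belonged to a 39 kb island at chr7:155161001-155200000, 50.8 kb from EN2, a homeobox gene of midbrain patterning. Its neighbour on the other side was INSIG1, a regulator of sterol synthesis. The starts of the lncRNA genes BLACE and LINC03010 lay in it or within 1 kb, and it held 2.95 CpG per 100 bp. GSK126 spike-in islands covered 99.0% and 100% of it. Its replicate 1 standard score was 5925 under DMSO and 12359 under GSK126, and the replicate 2 scores were 7906 and 32071, a log2 ratio of 1.06 and 2.02. This island gained in both replicates, as the next ones also did.

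At chr5:1647601-1680000, a 32.4 kb island between LPCAT1, an enzyme of lung surfactant lipid synthesis, and MRPL36, a mitochondrial ribosomal protein gene, was covered to 95.1% and 97.5%. Its log2 score ratio was 0.81 and 1.42. A pair of islands between IRX4 and IRX2, homeobox genes of heart and neural patterning, lay at chr5:2107401-2145800 and chr5:1990601-2024000. The former was covered to 88.5% and 84.4%, with log2 ratios of 0.76 and 0.57, and the latter to 97.0% and 100%, with 0.08 and 1.79. The replicates were therefore far apart on the latter. A 30.8 kb island at chr22:49275401-49306200, between TAFA5 and BRD1, was covered to 92.9% in both and had log2 ratios of 1.55 and 1.65.

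The highest score of all, 9524, fell on a 3 kb island at chr6:58776401-58779400 that stood apart. It lay 0.766 kb from a gap of the genome assembly and 1263 kb from PRIM2, the nearest coding gene. All 14 lists, of H3K27me3 and H3K4me3 and of DMSO and GSK126 alike, covered 100% of it. Its window held 5 CpG. In all, 415 intergenic islands (2.98%, against 2.16% of all islands) lay within 100 kb of an assembly gap of at least 1 kb. No list of input DNA was used, so copy number, reads from sequence missing in the assembly and enrichment cannot be told apart there. Those 415 were retained at 56.1% and 58.3% in the spike-in lists, and the other 13529 at 39.4% and 34.9%.

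The 4 strongest islands absent from both GSK126 spike-in lists had scores of 459 to 490 and lengths of 8.2 to 18.8 kb, above the upper quartiles of intergenic islands (229 and 7800 bp). The first, with a score of 490, covered 15.2 kb at chr14:78519601-78534800, 102 kb from NRXN3, a synaptic adhesion gene, and its neighbour on the other side was ADCK1. In the standard lists GSK126 islands covered 65.8% and 69.7% of it, and its log2 score ratio was -1.0 and -1.24. The second lay 90.7 kb from IRX1 at chr5:3692201-3700400, with log2 ratios of -0.83 and -1.96. The third, between TSHZ3 and ZNF507 at chr19:32463201-32482000, had -0.36 and -2.02. The fourth, 57.1 kb from NOG, a secreted BMP antagonist, at chr17:54793801-54812200, had -0.02 and -1.34. All 4 were still called in both GSK126 standard lists, and none rose there. The spike-in lists come from the same GSK126 libraries, at 28.2% and 29.3% of the tag density of the standard lists. Absence from the spike-in lists was the rule of choice, so the direction of these ratios is in part set by it.

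Intergenic islands were crowded. The median gap to the next one was 7600 bp, and joining islands with gaps of 10 kb or less gave 6225 chains, of which 3480 were single islands. A chain of at least 5 islands held 5115 of the islands (36.7%), and the longest chain had 32. Their density fell with distance from coding genes, from 15.7 islands per Mb at 10 to 20 kb, through 13.4 at 50 to 100 kb, to 3.04 beyond 500 kb. The median distance was 71.2 kb.

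The stretch of 1539 kb between IRX1 and ADAMTS16, a secreted metalloprotease gene, showed this crowding. It holds no other protein-coding gene and held 99 intergenic islands. DMSO spike-in islands covered 58.6% and 63.8% of it in replicates 1 and 2, and GSK126 spike-in islands 25.2% and 17.9%. In the standard lists the DMSO and GSK126 shares were 58.4% and 48.8% in replicate 1, and 59.3% and 30.4% in replicate 2. GSK126 covered less in all 4 pairs, and the replicates lay farther apart at equal tags. Of the 99 islands 26 were in both GSK126 spike-in lists and 51 in neither.

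**Figure D5:**
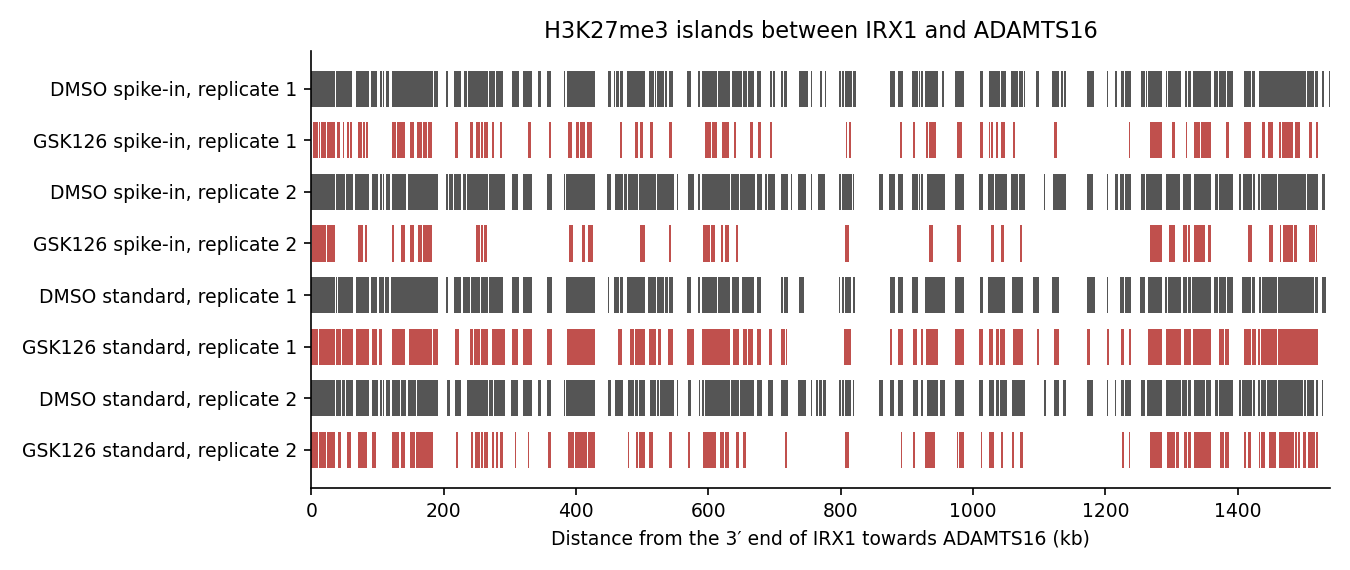
H3K27me3 islands of each library (DMSO grey, GSK126 red) in the spike-in and standard lists along the 1539 kb between IRX1 and ADAMTS16, by distance from the 3′ end of IRX1 in kb. The GSK126 spike-in rows are the sparsest, covering 25.2% and 17.9% of the stretch against 58.6% and 63.8% in the DMSO rows.

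The protein-coding genes with most intergenic islands nearest to them were of mixed function. Genes of any other annotated type did not count here, though they can lie closer to an island or under it. UQCRFS1, a subunit of respiratory complex III, was nearest to 72 islands, SOX11, a neural transcription factor, to 67, TMEM121 to 66, IRX1 to 64 and VSTM2A to 60. GALR1, a galanin receptor, had 59, MGMT, a DNA repair gene, 53, ADAMTS16 53, CADM1, a cell adhesion gene, 51 and RAB6C 48. Retention differed among these neighbourhoods. Around SOX11, 16 and 9 of the 67 islands were in the GSK126 spike-in lists (23.9% and 13.4%), and around VSTM2A 18.3% and 13.3%. Around MGMT, 56.6% and 64.2% were, and around TMEM121 62.1% and 53.0%. The SOX11 and VSTM2A shares lay below those of MGMT and TMEM121 in both replicates, and were also lower in the standard lists (46.3% and 41.8% around SOX11, 86.8% and 75.5% around MGMT).

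Set against the intergenic sequence nearest to them, developmental transcription factors had more islands than coding genes as a whole. Their 95 genes with an island had 694 islands, or 15.9 per Mb, against 10.3 per Mb over all genes. Zinc finger (ZNF) genes, many of them repressors, had 300 islands (12.3 per Mb) and Wnt ligands, secreted signals of development, 21 (24.5 per Mb). Olfactory receptor genes had 58 (6.46 per Mb), cadherins and protocadherins, which join neighbouring cells, 156 (4.18 per Mb), and axon guidance genes 54 (3.20 per Mb). Mean retention in the spike-in lists was 40.5% ± 4.28 for the developmental factors and 40% ± 5.66 for the zinc finger genes, beside 37.7% ± 3.03 for all. It was 36.2% ± 5.89 for cadherins, 24.1% ± 7.86 for axon guidance genes, 23.8% for Wnt ligands in both replicates and 21.6% ± 6.10 for olfactory receptors. The last 3 lists rest on 54, 21 and 58 islands, and no list was tested.

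Chromosomes differed widely. Chromosome Y had 0.874 islands per intergenic Mb (17 islands), chromosome 4 had 1.66 and X had 2.62, while 19 had 32.9, 22 had 27.9 and 20 had 26.0. Gene body islands went the same way, with 2.53 per genic Mb on chromosome 4 and 14.0 on 19. The few islands of chromosome 4 (174) were retained at 50.0% and 48.3%. With no input list, copy number in PC9 and H3K27me3 density cannot be told apart.

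Few intergenic islands carried H3K4me3. In DMSO replicate 1, 452 (3.24%, against 7.63% of all islands) overlapped an H3K4me3 island, and in replicate 2, 262 (1.88%, against 5.53%). The H3K4me3 lists had 1.77 tags per window in replicate 1 and 0.302 in replicate 2, and the part of this gap in the difference was not tested. Both DMSO lists marked 230 islands (1.65%, against 5.24%). Promoter islands were marked at 36.1% and 28.7%, gene body islands at 4.69% and 3.34%. With GSK126, after spike-in normalization, 407 (2.92%, against 6.94%) and 250 (1.79%, against 5.24%) intergenic islands were marked. In the GSK126 standard lists 456 (3.27%) and 280 (2.01%) were. There, 4.43% and 3.23% of gene body islands, 34.4% and 29.0% of promoter islands and 5.20% and 3.00% of flank islands were marked.

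Changes in H3K4me3 were seldom shared by the replicates. In replicate 1, 116 islands were marked only with DMSO and 71 only with GSK126, and in replicate 2, 74 and 62. Of these, 17 were marked only with DMSO in both replicates and 10 only with GSK126 in both. At equal tags the shared counts were 10 and 11, so there neither direction led. All these counts are for intergenic islands only and are not set against those of other islands.

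The 230 islands with H3K4me3 in both DMSO lists had more CpG. They held a median of 2.17 CpG per 100 bp, against 1.12 in the 13460 islands without H3K4me3, and 29.1% overlapped the start of a lncRNA gene, against 7.85%. They were found in the GSK126 spike-in lists at 60.0% and 57.0% (mean 58.5% ± 2.15), and the unmarked ones at 39.3% and 35.0%. Their median DMSO score of 206 was also above the 107 of unmarked islands. Of the 230, 47 lay within 100 kb of an assembly gap, as did 2.98% of all intergenic islands. Intergenic islands near a gap were themselves retained at 56.1% and 58.3%. Whether the 183 marked islands farther from gaps were also retained more often was not tested. Among the 230 were the chromosome 6 island at the assembly gap and the LPCAT1 to MRPL36 island. H3K4me3 covered 3.70% and 1.85% of the length of the latter with DMSO and none with GSK126. The third by score lay at chr7:157245801-157283000, between DNAJB6 and PTPRN2, with 4.84% and 4.30% of its length in H3K4me3. The fourth, at chrY:13460201-13490200, had 37.3% and 12%.

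H3K4me3 was found also far from genes. Beyond 500 kb from a coding gene 6.60% and 4.72% of the 742 islands overlapped H3K4me3, more than the 1.89% and 1.07% at 200 to 500 kb. Without the 99 of them near an assembly gap, of which 37.4% and 26.3% were marked, the shares were 1.87% and 1.40%. At 200 to 500 kb, also without islands near gaps, they were 1.19% and 0.703%. These shares rest on 12 and 9 marked islands beyond 500 kb, and on 27 and 16 at 200 to 500 kb.

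Intergenic islands at the starts of lncRNA genes were longer, scored higher and were retained more often than the others. A start, with 1 kb on either side, was overlapped by 1166 islands (8.36%, against 8.62% of all islands). These islands had a median length of 6800 bp and 1.43 CpG per 100 bp, and 57.3% and 54.8% were in the GSK126 spike-in lists (mean 56.0% ± 1.76). Islands within lncRNA genes but off their starts gave 38.0% and 35.3%, and islands outside them 38.4% and 33.3%. Median scores were 194, 105 and 104 in the same order. The highest-scoring ones besides those named above lay at chr2:240630801-240659200, between HDAC4 and NDUFA10, with log2 score ratios of 0.86 and 1.37, and at chr8:143167401-143192200, near TSNARE1, with 0.98 and 1.04. Both gained score at equal tags in both replicates.

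The island farthest from any coding gene, 2084 kb away at chr4:180977601-180981600, was a CpG-rich lncRNA start. It was 4 kb long, held 5.73 CpG per 100 bp and overlapped the start of ENSG00000287083. H3K4me3 covered 75% and 50% of it with DMSO and 80% and 50% with GSK126, and GSK126 spike-in H3K27me3 islands covered 65% and 70%. Its standard scores were 97.9 under DMSO and 228 under GSK126 in the replicate 1 lists, and 68.4 and 269 in those of replicate 2 (log2 1.22 and 1.98). The next, at chr19:27731801-27740800, lay 0.018 kb from an assembly gap. The third, at chr5:29390201-29396600, overlapped the start of LINC02064 between CDH9 and CDH6 and was in neither GSK126 spike-in list. The fourth, at chr2:92308001-92309800, lay 16.4 kb from a gap and was in neither list either.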

How the data were processed

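H3K27me3 and H3K4me3 ChIP-seq was done on PC9 cells with DMSO or GSK126, 2 libraries per group. Groups came from the labels, and replicates were numbered in accession order, since the labels give no number. The authors aligned 50-nt tags to hg19 and to the fly genome with BWA, removed duplicates and kept unique tags with mapping quality over 25. Their processing notes also name SAMtools 0.1.18. They scaled human tags by fly tags (spike-in lists) or to equal depth (standard lists) and called islands in each library with SICER (windows of 200 bp, gap 600 bp for H3K27me3 and 200 bp for H3K4me3, E-value 1, random background). H3K4me3 DMSO libraries have 1 list each. The deposited values, 14 lists, are island positions and an island score per library, never pooled. The score rises with the number of tags, so scores were compared only between standard lists of a replicate.

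Islands were classed with GENCODE 44 lifted to GRCh37 (20163 protein-coding and 18702 lncRNA genes) and chromosomes 1 to 22, X and Y. Overlap meant at least 1 bp. A score crossing an island edge was shared by length. Quartiles were cut on the members. Mean tags per window was fitted to islands of 1 or 2 windows. Distances and sequences were taken from GRCh37. The windows of islands without a GSK126 spike-in island are not reported here. Named islands were the 6 with the highest scores, the 4 highest without a GSK126 spike-in island, with H3K4me3 in both DMSO lists or at a lncRNA start, the 4 farthest from genes, and those nearest each limit. Named genes flank these islands or are the 10 nearest to most islands. The members, lists and rules were chosen with earlier results of these data known. Python 3.11.15, NumPy 2.4.6, SciPy 1.17.1 and matplotlib 3.10.9 were used, and the interval, share and tag-density steps were tested on simulated data. Alternatives covered distance, threshold, overlap, length, chromosomes, replicate of origin and score or length groups.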

Additional observations from a re-analysis of the deposited data

How the results depend on the processing

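No result comes from a test, so the pairing of libraries enters only through values taken within a replicate. The labels carry no replicate numbers, and ratios were taken between the DMSO and GSK126 libraries whose standard lists have equal tag density. Besides the values from single replicates, 52 recomputed values moved by less than the SD between replicates, 7 moved by more and 0 changed sign. Only the log2 ratios and the intergenic minus gene body difference could change sign, since shares cannot. The sign was read from the mean of the replicates. With DMSO islands of at least 2 times the lowest score (8179 members), the retained share was 58.8% in the spike-in lists and 87.2% in the standard lists, and the log2 ratio of covered length was -1.05 and -0.15. An overlap of 50% gave a spike-in retained share of 28.2%. The intergenic minus gene body difference was -1.16 points within score groups and -1.35 within length groups. Within score groups it was 0.04 in replicate 1 and -2.37 in replicate 2. Single replicates gave retained shares of 35.6% to 39.9% (spike-in) and 59.0% to 71.4% (standard), log2 covered length of -1.41 to -1.26 and -0.48 to -0.28, log2 summed score of 0.17 to 0.41, intergenic minus gene body of -4.91 to -2.59 points, and H3K4me3 overlap of 1.88% to 3.24%. A limit of 5 or 50 kb left 15318 or 8405 members, and keeping lncRNA genes at the same distance left 7993, of which 35.5% were retained. Without islands within 100 kb of an assembly gap, an alternative chosen after seeing the data, 37.1% were retained in the spike-in lists and 64.8% in the standard lists. At the tag density of the GSK126 spike-in lists, weak islands can fall under the call limit, so absence from them is not absence of the mark.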
